A study of Mus musculus with 2 samples.

Results

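Long noncoding RNA (lncRNA) genes that lie apart from protein-coding genes held 1661 of the 34139 differentially methylated regions in the authors' list, or 4.87% of them. A region belonged to this group if it lay on chromosomes 1 to 19, overlapped the body of a RefSeq gene of biotype lncRNA, and was more than 5 kb and at most 100 kb from the nearest protein-coding gene body. No score entered that choice. The list compares 1 bisulfite library of CD137+ adipose progenitors with 1 library of PDGFRα+ (CD140a+) adipose progenitors from C57BL/6 mice. The cells of both libraries were sorted with magnetic beads from subcutaneous or visceral fat, cultured, put through adipogenic differentiation and given dexamethasone (DEX), a synthetic glucocorticoid. Both groups therefore carry the same treatment, the labels do not tie a library to a fat depot or an age, and no untreated library was compared. DNA methylation does not measure the sorted antigens, so the cell types could not be checked against their markers here.

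A lncRNA is a transcript longer than typical small RNAs that is not translated into protein. Many lncRNA genes are transcribed next to genes of developmental transcription factors, sometimes head to head with them. Some, such as Neat1, which builds the nuclear paraspeckle, and Hotair, transcribed within the HoxC cluster, have known roles of their own. Cytosine methylation at CpG sites near a start site or an enhancer is commonly lower where that element is in use. Each region in the list carries a signed score from the authors, which is not a methylation level and has no stated unit. The list does not say which library was subtracted from which. Its title names CD140 before CD137, so a negative score would mean lower methylation in the PDGFRα+ library only if the score is first minus second. "Negative" and "positive" below refer to the score alone, "strong" means an absolute score of 100 or more, and no score can be set against a replicate spread because each group has 1 library.

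Few of these regions touched a lncRNA start, but those that did included some of the strongest, so their sequences are shown first. RefSeq start sites with 250 bases before and 50 after them (GRCm38.p6) were at hand for 930 of the 1201 lncRNA genes concerned. Such windows met 57 member regions, 41 of them negative and 23 of them strong. The negative share was 71.9% (Wilson interval 59.2 to 81.9), against 67.3% over all autosomal regions. The strong share was 40.4%, against 17.6% of all other members, with or without a start window at hand. The median width was 191 bp against 112 bp in those other members. For these 57 regions the part of width in the strong share was not tested. The first 8 pieces below are the stretches shared by a region and a start window for the 4 strongest negative and the 4 strongest positive of these, followed by the same stretch for Lyrm7os, which has a given name rather than a placeholder symbol. They run 5′ to 3′ along the lncRNA strand, and capitals mark CpG sites, the positions where methylation is read.
Gm40565: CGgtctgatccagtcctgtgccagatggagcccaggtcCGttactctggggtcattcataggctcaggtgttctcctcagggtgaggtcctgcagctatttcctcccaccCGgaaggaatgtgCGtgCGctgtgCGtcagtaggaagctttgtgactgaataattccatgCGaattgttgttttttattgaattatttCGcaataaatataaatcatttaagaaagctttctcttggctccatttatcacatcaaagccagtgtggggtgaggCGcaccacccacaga
Gm30528: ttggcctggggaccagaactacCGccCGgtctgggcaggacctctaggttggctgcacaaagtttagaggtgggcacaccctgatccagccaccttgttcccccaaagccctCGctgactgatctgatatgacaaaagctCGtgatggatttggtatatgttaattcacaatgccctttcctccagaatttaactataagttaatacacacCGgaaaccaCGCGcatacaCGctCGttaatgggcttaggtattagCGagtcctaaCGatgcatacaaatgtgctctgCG
Gm21221: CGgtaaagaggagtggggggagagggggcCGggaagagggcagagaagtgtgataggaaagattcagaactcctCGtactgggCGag
Gm36062: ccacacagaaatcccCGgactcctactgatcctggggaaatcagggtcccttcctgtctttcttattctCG
Gm43305: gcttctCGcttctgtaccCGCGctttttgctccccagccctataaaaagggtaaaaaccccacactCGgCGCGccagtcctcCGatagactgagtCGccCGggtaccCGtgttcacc
1700054A03Rik: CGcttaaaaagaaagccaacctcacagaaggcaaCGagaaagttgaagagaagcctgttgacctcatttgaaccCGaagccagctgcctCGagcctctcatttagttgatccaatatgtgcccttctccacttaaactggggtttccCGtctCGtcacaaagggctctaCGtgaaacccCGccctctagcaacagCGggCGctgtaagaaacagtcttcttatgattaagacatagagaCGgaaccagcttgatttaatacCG
Gm13491: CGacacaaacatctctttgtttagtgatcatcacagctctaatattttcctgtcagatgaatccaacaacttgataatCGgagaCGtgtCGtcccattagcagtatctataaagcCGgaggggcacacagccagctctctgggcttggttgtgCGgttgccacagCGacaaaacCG
Gm14009: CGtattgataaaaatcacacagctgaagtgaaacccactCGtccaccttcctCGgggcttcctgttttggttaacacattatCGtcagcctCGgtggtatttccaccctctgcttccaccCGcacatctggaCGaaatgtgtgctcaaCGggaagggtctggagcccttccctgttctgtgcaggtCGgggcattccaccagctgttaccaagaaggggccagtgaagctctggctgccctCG
Lyrm7os: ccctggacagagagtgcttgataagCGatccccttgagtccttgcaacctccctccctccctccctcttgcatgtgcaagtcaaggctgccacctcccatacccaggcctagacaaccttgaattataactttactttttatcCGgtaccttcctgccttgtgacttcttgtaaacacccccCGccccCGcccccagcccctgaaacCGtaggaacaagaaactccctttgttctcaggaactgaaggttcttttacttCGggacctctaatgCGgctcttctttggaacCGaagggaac

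The piece of Gm40565 comes from chr12:105517701-105517988 on the minus strand and holds 9 CpG sites in 288 bases. Its region, 1091 bp wide with a score of -486, spans the start of the gene and lies 23.8 kb from the coding gene D430019H16Rik. The piece of Gm30528 (chr15:103060516-103060805, minus strand, 12 CpG sites) belongs to a region of 712 bp with a score of -463 that lies 23.7 kb from Hoxc4. Gm21221 (chr5:149811702-149811788, minus strand) has a region of score -417 over 1044 bp, and Gm36062 (chr7:135398242-135398312) one of -285 over 310 bp, 11.8 kb from Foxi2. The 4 negative pieces hold 2.82 to 4.60 CpG sites per 100 bases.

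The strongest positive start region is that of Gm43305 (chr14:54297439-54297555, minus strand), with a score of 349 over 360 bp and 10 CpG sites in the 117 bases shown, or 8.55 per 100 bases, while the other 3 positive pieces hold 4.12 to 4.56 per 100 bases. The region at 1700054A03Rik (chr19:53076031-53076293, score 174) also covers a start of Gm30234 on the opposite strand, so it spans a pair of divergent starts. Gm13491 (chr2:51610388-51610563) scored 141, and Gm14009 (chr2:128189766-128190008), 27.2 kb from the apoptosis gene Bcl2l11, scored 122. Lyrm7os (chr11:54819669-54819968) scored -130.

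Windows met by a member region held a median of 7 CpG sites (quartiles 5 and 10, 61 windows). The median was 4 (quartiles 2 and 8) over all 11311 start windows of autosomal lncRNA genes and 4 over the 1299 windows of the lncRNA genes with a member region. Part of such a gap is built in, because the edges of regions fell on CpG cytosines. A search for the TEAD core motif (GGAATG, both strands) found it in 13 of the 61 windows, or 21.3%, against 16.7% of all lncRNA windows and 14.7% of all 32851 windows, and 18.6% of the windows of lncRNA genes with a member region. A glucocorticoid receptor core (ACANNNTGT, both strands) stood in 6 of 61, or 9.84%, against 8.47%, 6.85% and 8.62%. These are matches of letters within 300 bases, not binding sites.

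Negative scores outnumbered positive ones in this group, in a proportion close to that over all autosomal regions. Of the 1661 regions 1133 were negative and 528 positive, or 68.2% negative (95% Wilson interval 65.9 to 70.4), against a background of 67.3% among all 33566 autosomal regions. Regions at the same distance from coding genes but outside any lncRNA body were 67.6% negative (7011 regions), a difference of 0.58 percentage points (95% Newcombe interval -1.95 to 3.03). Regions in protein-coding gene bodies were 66.7% negative, and regions in lncRNA bodies more than 100 kb from coding genes 67.4%. The intervals cover the counting of regions only, and neighbouring regions are not independent. The lncRNA regions within 5 kb of a coding gene, which the rule leaves out, were negative in 59.5% of 242 (53.2 to 65.5), 8.71 points lower than the members (2.30 to 15.4).

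Strong scores were somewhat more frequent at lncRNA genes than in like-placed sequence. Of the 1661 regions 305, or 18.4% (16.6 to 20.3), had an absolute score of 100 or more, against a background of 15.6% over the autosomes. The share was 14.9% among like-placed regions without a lncRNA, a difference of 3.49 points (1.50 to 5.58). It was 16.7% in coding gene bodies, where the difference of 1.64 points had an interval that included 0 (-0.231 to 3.66). It was 20.04% for regions in both a lncRNA and a coding gene body and 25.2% for lncRNA regions within 5 kb of a coding gene. Beyond 100 kb from coding genes it was 14.9% in lncRNA genes and 11.3% outside them. Width moved with this result. Scores rose with width, and the share of strong regions in lncRNA genes and in like-placed sequence was 1.21% and 0.934% below 100 bp, 13.1% and 11.0% from 100 to 200 bp, 54.8% and 47.6% from 200 to 500 bp, and 78.6% and 72.4% from 500 bp. The share was higher in lncRNA genes in each of the 4 width classes. The Wilson intervals of both sets overlapped in each class, only slightly from 200 to 500 bp (49.4 to 60.1 and 44.9 to 50.3). No interval was computed for the difference within a class, so the overlap does not show that the difference was absent there. Read coverage and CpG content of the regions were not at hand, and their part in the result was not tested.

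**Figure D1:**
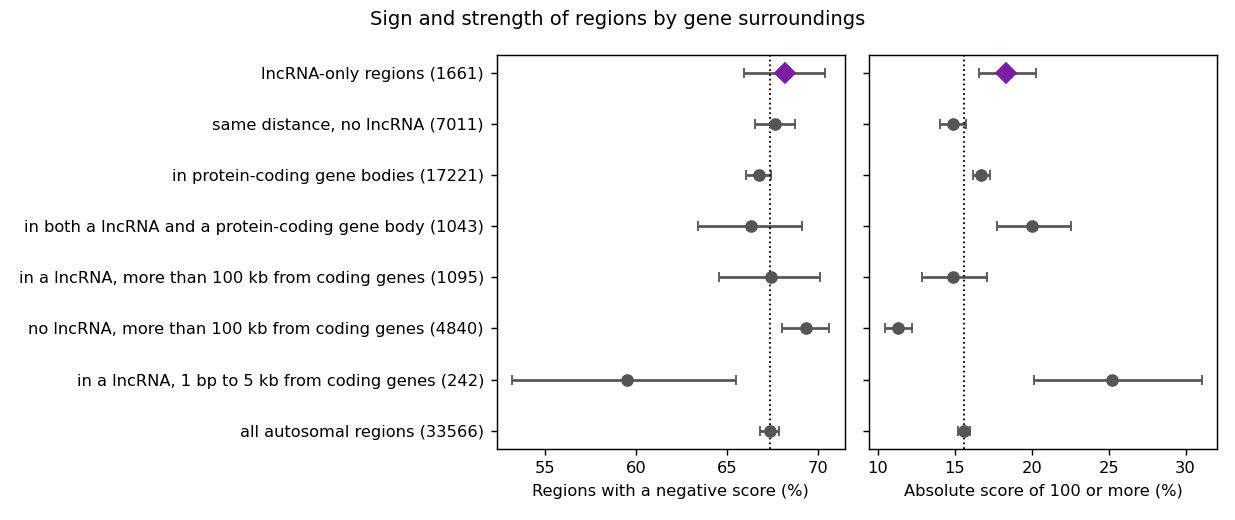
Share of regions with a negative score (left, %) and with an absolute score of 100 or more (right, %) for the lncRNA-only regions (diamond) and 7 other sets, with the number of regions in brackets; bars are 95% Wilson intervals and the dotted line is the share over all autosomal regions. The lncRNA-only regions sit at 68.2% negative, beside the line at 67.3%, and at 18.4% strong, above the line at 15.6%.

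Regions were also denser along lncRNA genes. The sequence 5 to 100 kb from coding genes held 86.6 Mb of lncRNA gene bodies, with 19.2 regions per Mb, and 542.7 Mb outside them, with 12.9 regions per Mb, a ratio of 1.49. The part of read coverage and CpG content in this ratio was not tested, and no interval was computed for it. The nearest other region of the list was within 5 kb for 35.0% of the members and for 25.8% of like-placed regions, a difference of 9.16 points (6.68 to 11.7). Where it was that near, it had the same sign in 74.2% of cases in both sets. In coding gene bodies neighbours shared their sign in 80.3% of cases. The near neighbour of a negative member was negative in 82.4% and that of a positive member positive in 55.6%, where 67.3% of all autosomal regions are negative, so these shares cannot be compared with each other directly.

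Negative regions were slightly wider than positive ones, at similar absolute scores. The median width was 115 bp (quartiles 83 and 188), 120 bp for negative and 106 bp for positive regions, and 42 regions reached 500 bp. The median absolute score was 50.6 among negative and 52.4 among positive members. The widest of all, a region of 2992 bp in Gm41091, scored only -42.1, and the start window it covers holds 0 CpG sites; it was singled out after its values were seen. The members lay at a median of 32673 bp from the nearest coding gene.

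**Figure D2:**
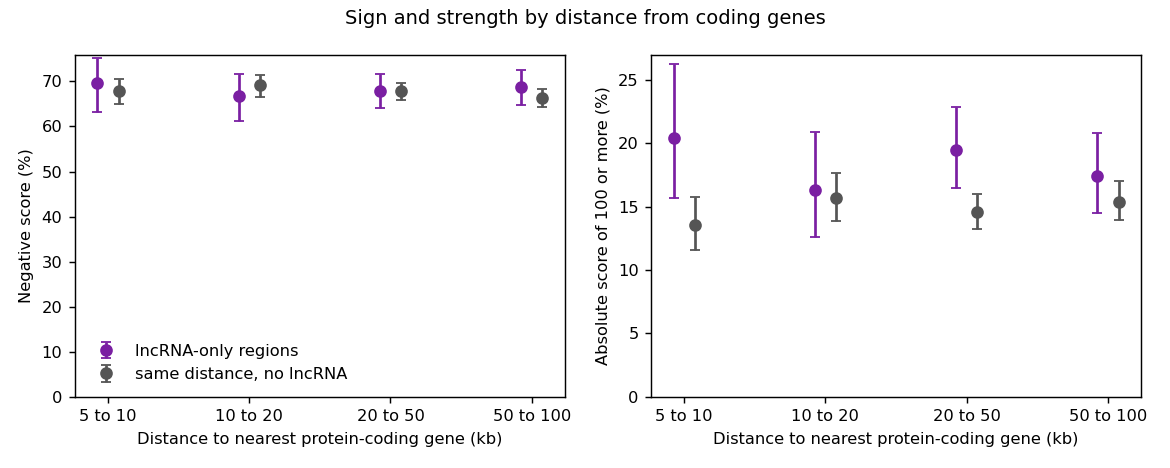
Share of regions with a negative score (left, %) and with an absolute score of 100 or more (right, %) in 4 classes of distance to the nearest protein-coding gene (kb), for lncRNA-only regions and for regions at the same distance without a lncRNA; bars are 95% Wilson intervals. The negative share of the lncRNA-only regions stays between 66.7% and 69.5% in all 4 classes.

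By distance, the negative share was 69.5% of 220 regions from 5 to 10 kb, 66.7% of 306 from 10 to 20 kb, 68.0% of 590 from 20 to 50 kb and 68.8% of 545 from 50 to 100 kb. At the limits of the rule, the regions just inside 5 kb lay in Gm38460 (5.011 kb, score 40.2) and LOC115487369 (5.017 kb, -38.2), and those just outside in Gm33655 (4.986 kb, 238) and Gm17508 (4.979 kb, -66.6). At the outer limit 4930543I11Rik (99.933 kb, -42.8) was inside, and Pldi (100.273 kb, 174) was outside. By chromosome the negative share ran from 59.6% on chromosome 4 to 78.6% on chromosome 3. The interval for chromosome 4 (49.5 to 68.9) held the share of 67.3% over all autosomes. Those for chromosomes 3 (68.7 to 86.0), 6 (68.1 to 83.8) and 8 (68.3 to 84.7) lay above it, among 19 chromosomes looked at. Over all regions of the same chromosomes the share was 66.2% on chromosome 3, 69.0% on chromosome 6 and 68.0% on chromosome 8. Of these only that of chromosome 6 lay inside the interval of its members.

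Strong scores were more frequent near a lncRNA start than further from it. Of the 1298 members in lncRNA genes with a known start, 170, or 13.1%, lay within 1 kb of one. Of these 45, or 26.5%, were strong, against 17.4% of the 1128 further away, a difference of 9.09 points (2.61 to 16.5). Their median width was 123.5 bp against 112.5 bp. They were negative in 62.9% of cases (55.5 to 69.8), against 68.4% further away, which lies inside that interval.

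The members fell in 1201 lncRNA genes, 9.68% of the 12408 autosomal lncRNA genes in the RefSeq table. Of these genes 354 have a curated transcript and 847 rest on predicted transcripts alone, and all but 50 carry placeholder symbols. Genes with a member had a median length of 20888 bp against 7723 bp for the other lncRNA genes. The part of gene length in which genes hold a region was not tested. A total of 91 regions overlapped more than 1 lncRNA gene and are counted for each of them below. Counts for a lncRNA gene take member regions only, unless stated. Other regions in its body, such as those within 5 kb of a coding gene, are left out. A single region lay in 856 genes and 2 or more in 345. Among those 345 genes, 173 had only negative regions, 42 only positive ones, and 130, or 37.7%, had both signs. Since 67.3% of all autosomal regions are negative, genes with only negative regions would outnumber those with only positive ones in any case. The numbers to expect from that share were not computed.

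Gm53 held the most member regions of any lncRNA gene, and they were all of 1 sign. This gene of 12.8 kb lies between Hoxb13 and Hoxb9 in the HoxB cluster (chromosome 11, positions 96251660 to 96264484, mm10), where HOX genes encode position along the body axis. Its 12 regions all scored negative, from -31.9 to -387, and the strongest stood near the end that faces Hoxb9, 6.88 kb from that gene. The 5 regions in Hoxb9 or within 5 kb of it were negative as well.

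A further negative region between Gm53 and Hoxb9, in Gm51876, ran into the hairpin of Mir196a-1 (score -41.6), and 4 of the Gm53 regions lay within 5 kb of that hairpin. The product of Mir196a-1 is known to target HOX transcripts, and its mature sequence is shown with the seed (bases 2 to 8) in capitals.
mmu-miR-196a-5p: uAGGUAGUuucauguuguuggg
In all, 10 member regions had a microRNA hairpin within 5 kb. They included a positive one in Mirc35hg, 1333 bp from Mir182 (score 53.4), and a negative one in Lncppara, 1276 bp from Mirlet7c-2 (score -36.3).

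Gm41625 came next, with 10 regions of mixed sign along 84.6 kb between Atl2 and Hnrnpll (7 negative, from -183 to 58.1). Gm33655, a gene of 327 kb that overlaps a coding gene and has regions nearest to Trabd2b and to Foxd2, carried 8 regions, 5 of them positive. Within it a region of -273 and one of 305 stood 28.5 and 33.7 kb from Trabd2b, so opposite strong scores were close together. Gm29683 also had 8 regions, 7 of them positive. Wt1os and Gm34080 had 7 each, with 4 and 5 positive. The 6 member regions of 9130019P16Rik were all negative, as were the 6 of Gm35197, whose body spans the endothelin receptor gene Ednrb. Gm38475 had 5 of 6 negative, and the 6 member regions of 2700069I18Rik were all positive.

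**Figure D3:**
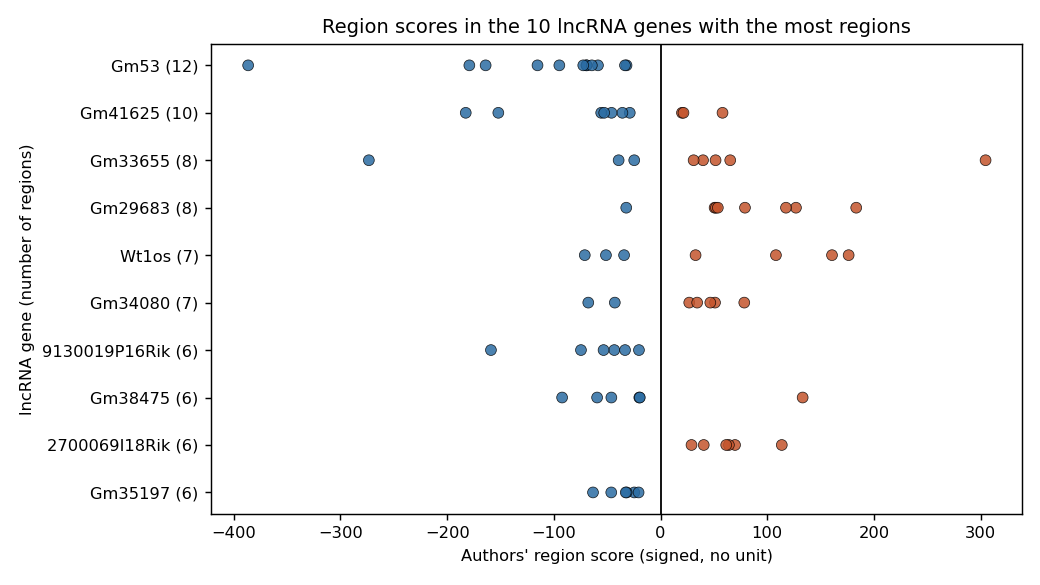
Authors' signed score (horizontal axis, no unit) of each member region in the 10 lncRNA genes with the most member regions, with their number in brackets. Blue points are negative and orange points positive. Gm53, 9130019P16Rik and Gm35197 lie wholly on the negative side and 2700069I18Rik wholly on the positive side, whereas the other 6 genes have points on both sides.

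At several developmental regulators the member regions of a neighbouring or overlapping lncRNA gene and the regions of the regulator were all or nearly all of 1 sign. Regions of a regulator are those in it or within 5 kb of it. Some of them can also lie in the lncRNA gene, so the 2 counts are not always of separate sequence. These loci were chosen after their values were seen. The strongest negative member, with a score of -506 over 987 bp (chromosome 11, 18870143 to 18871129), lay in 8430419K02Rik, 9.30 kb from Meis1, which encodes a HOX cofactor. The same lncRNA held regions of -311 and -25.1, and all 29 regions in Meis1 or within 5 kb of it were negative. The 4 member regions of Gm30528, which overlaps Hoxc4, were negative (-51.3 to -463). Hoxc4 had 4 negative regions and 1 positive one, some of which may lie in both genes. Also negative were the 2 in Hotair, between Hoxc11 and Hoxc12 (-111 and -101). The 5 member regions of Irx3os (-22.5 to -111) were negative, as were the 7 regions of Irx3, an Iroquois homeobox gene. Those 7 include a region in Irx3os, 423 bp from its nearest member and closer to Irx3. Hdnr, beside the mesenchymal factor gene Hand2, had 4 negative regions (-32.5 to -99.6), and Hand2 had 6, all negative. At Zfhx4, a zinc finger homeobox gene, the 6 member regions of 2700069I18Rik (29.0 to 114) and the 14 regions of Zfhx4 were all positive. The body of 2700069I18Rik overlaps that of Zfhx4.

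Elsewhere the member regions of a lncRNA gene and the regions counted for the coding gene differed in sign. Gm29683, near Nr2f2, which encodes the orphan nuclear receptor COUP-TFII, held 7 positive regions (50.7 to 183) and 1 of -32.2, while all 10 regions at Nr2f2 were negative. The positive regions lay between 21.0 and 72.1 kb from Nr2f2, and the negative one, at 14.8 kb, was the nearest to it. A positive region of 297 shared by Gm38604 and 3110006O06Rik lay 7.56 kb from the related gene Nr2f1, whose 3 regions were negative. Wt1os starts next to Wt1, which encodes a transcription factor of mesothelium, and runs away from it. The 3 member regions of Wt1os nearest to Wt1, 5.74 to 12.1 kb away, were positive (108, 161 and 176). The next 3 were negative (-34.2 to -71.0), and the last, 43.8 kb away, was positive (32.8). Of the 8 regions in Wt1 or within 5 kb of it, 6 were negative. Those 8 include a positive region in Wt1os, 586 bp from the member of 176 and nearer to Wt1. Osr2, a mesenchymal zinc finger gene, had 6 positive regions of its own, and 3 of the 5 in the lncRNA genes nearest to it were negative. Ednrb had 2 positive regions in it or within 5 kb of it, against 5 negative member regions in lncRNA genes (-20.6 to -63.3). Gm35197, which held some of those 5, spans Ednrb, so the 2 positive regions lie in its body as well. At Gas1, which encodes a hedgehog co-receptor, signs could not be compared. It had no region of its own beside 5 negative ones in neighbouring lncRNA genes (-25.2 to -171).

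**Figure D4:**
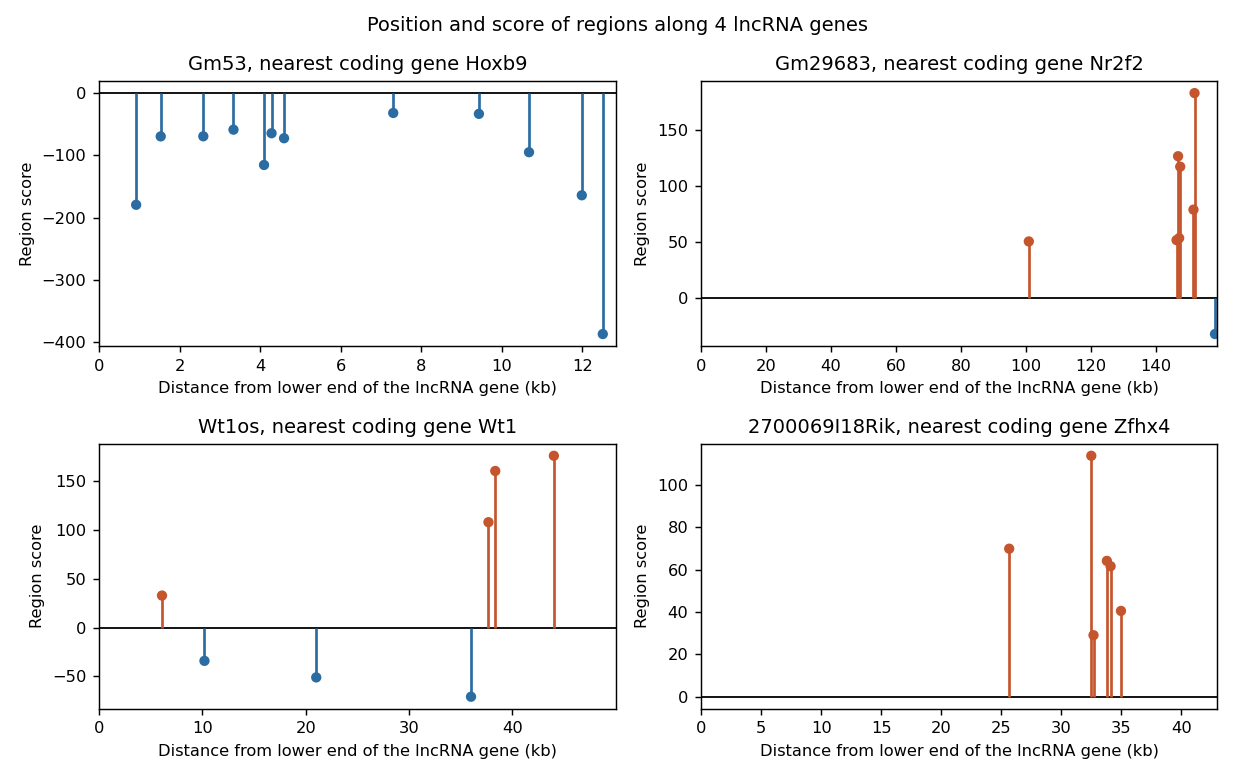
Score of each member region (vertical axis, no unit) against its distance from the lower-coordinate end of the lncRNA gene (kb) for Gm53, Gm29683, Wt1os and 2700069I18Rik. Blue is negative and orange positive, each axis spans the whole gene, and regions that are not members are not drawn. Gm53 is negative along its length, Gm29683 has a run of positive regions ended by 1 negative region, and Wt1os changes from negative to positive toward the end nearest Wt1.

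Over all members, a lncRNA region and a like-placed region shared the sign of the neighbouring coding gene at nearly the same rate. The nearest coding gene had regions of its own, in the gene or within 5 kb, for 1028 members, and most of them were of 1 sign for 914. The member had that sign in 60.9% of cases (57.7 to 64.1), and like-placed regions without a lncRNA in 61.0% (59.5 to 62.6). Members were negative in 70.3% of cases beside a mostly negative gene and in 62.7% (56.7 to 68.3) beside a mostly positive one. The corresponding shares for like-placed regions were 69.4% and 61.0%.

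**Figure D5:**
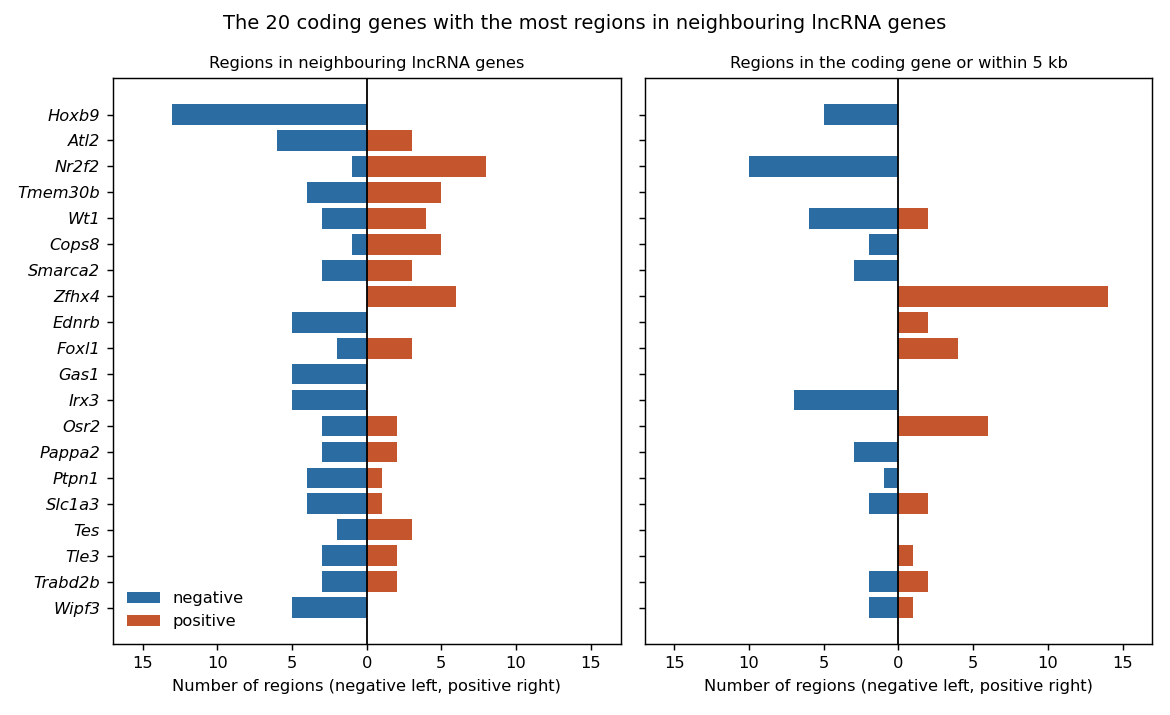
Number of negative (blue, left) and positive (orange, right) regions for the 20 coding genes with the most member regions in neighbouring lncRNA genes. The left panel counts those member regions. The right panel counts regions in the coding gene or within 5 kb of it, which can also lie in a lncRNA gene. Hoxb9, Irx3 and Zfhx4 keep 1 sign in both panels, while Nr2f2 has 8 of 9 positive on the left and 10 of 10 negative on the right.

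Neighbours were grouped by 4 lists of coding genes. Genes of the homeobox and body position list were the nearest coding gene for 58 members, at 22 of its 101 genes. Of these regions 72.4% were negative (59.8 to 82.2) and 32.8% strong. Like-placed regions without a lncRNA beside the same list were 59.6% negative (51.2 to 67.4) and 19.1% strong, and the intervals of the negative share overlap. The Hoxb9 neighbourhood alone gave 13 of the 58, all negative, and without it 64.4% of 45 were negative (49.8 to 76.8). The En1 neighbour Gm34352 carried 4 strong negative regions (-101 to -182), and En1 encodes an engrailed homeobox factor used in limb patterning. Single positive regions stood near Barx1 (116), Emx2 (112) and Msx2 (102).

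Beside mesenchymal transcription factor genes, 67 members at 28 of 80 genes were negative in 52.2% of cases (40.5 to 63.7) and strong in 26.9%. The like-placed regions of that list were 63.3% negative (55.4 to 70.6), and the intervals overlap. Positive examples were Gm51761, 22.4 and 23.9 kb from Tcf21, a factor of visceral mesenchyme, with scores of 183 and 256. Fendrr, a lncRNA that lies near Foxf1 and has a role in heart and body wall development, had 1 positive region (98.2), 29.3 kb from Foxf1. The lncRNA genes near Foxd2 held 4 positive member regions (31.0 to 65.3). The 5 regions in Foxd2 or within 5 kb of it were all positive, and they include the region of 238 in Gm33655, 4.986 kb away. Negative examples were Gm3143, 56.8 kb from the pluripotency gene Sox2 (-423), and Gm46301 near the chondrogenic factor Sox9 (-278), which also held a positive region (43.7).

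Fat cell and glucocorticoid genes were the nearest coding gene of 21 members, at 11 of 58 genes, with 16 negative (76.2%, 54.9 to 89.4) and 4 strong. Like-placed regions of the same list were 68.8% negative and 15.6% strong, and their negative share lies inside that interval. Negative regions stood near Cebpb, an early adipogenic factor with no region of its own (3 regions, -33.8 to -89.7), near Irs2, an insulin receptor substrate (3 regions, -32.2 to -55.3), and near the deiodinase gene Dio2 (2 regions, -46.5 and -50.2). The strongest, -182, lay in 1700045H11Rik, 18.9 kb from Errfi1, a glucocorticoid-induced gene. A region of -143 shared by Gm12159 and Gm51859 lay 95.2 kb from Ebf1, whose own regions were positive in all but 1 of 25. Platr6, 24.2 kb from the glucocorticoid-induced kinase gene Sgk1, had a positive region of 109.

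The signalling list gave 23 members at 18 of 110 genes, of which 65.2% (44.9 to 81.2) were negative and 4, or 17.4%, were strong. Like-placed regions of the list were 58.3% negative and 15.2% strong. The strongest was a region of -246 in Gm31820, 48.5 kb from Wnt4, and that lncRNA also held a positive region (65.7). Gm35941 near Smad3, a TGF-beta effector, had 2 negative regions (-115 and -49.6), and LOC102632415, 16.0 kb from the hedgehog receptor gene Ptch1, had 1 (-112). A730004F24Rik, 81.6 kb from Tgfb2, had a positive region (104). Gm15270 and Gm36089 shared a negative region of -55.2 near the YAP target Ccn2.

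Among lncRNA genes looked up by name, Hotair and Tbx3os1 held strong member regions and the other 13 with a member did not. Of the genes on that list, 15, among them Hdnr, had a member region, 17 had regions that did not meet the rule, 33 autosomal ones had none, and the remaining 12 were not matched in the table, of another biotype or not autosomal. Neat1 had 3 positive regions (38.5, 51.0 and 79.2), none of them strong. Pvt1, next to Myc, had 3 weak ones (35.8, 65.7 and -40.7) and 5 more that lay over 100 kb from a coding gene. Carmn, a lncRNA of smooth muscle cells, had 2 negative regions (-71.7 and -47.3), and Tbx3os1 had 1 of each sign (137 and -85.9). The imprinted lncRNA genes Rian and Airn had 1 weak negative member region each (-38.6 and -25.0). Airn had 2 more regions that were too near a coding gene to meet the rule. Trp53cor1, a target of p53, had 1 positive region (22.6). Malat1, H19 and Gas5 were among those with no region.

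Other lncRNA genes with a given name mostly held 1 region. Those with an absolute score above 100, besides Wt1os, Irx3os, Lyrm7os, Platr6, Hotair and Tbx3os1, were Mm2pr (3 negative regions, strongest -299), St8sia3os (-175, with 2 weak positive ones), Otx2os1 (-159), Ifngas1 (131 and -34.3) and Mkln1os (107, with 2 negative ones). The remaining positive regions among the 12 strongest included A730013G03Rik, near Sertad4 (381 over 567 bp), A930004D18Rik and Gm33085, which share a region 12.3 kb from Skida1 (339), 2900052L18Rik near Bahcc1 (322) and 2700003A03Rik near the chemokine receptor gene Ackr3 (321). The remaining negative ones included Gm32168 (-421), Gm11529 near Skap1 (-421), Gm38407 (-409), 1700016J18Rik (-383) and Gm35533 near Kitl, which encodes the KIT ligand (-347). Further positive ones were in Gm53062 (288), Gm30003 near the elastin gene Eln (273), Gm14273 (240) and Gm42354 (228).

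A lncRNA gene could overlap a coding gene at another point of its length, as 185 of the 1201 did. Regions in overlapping lncRNA genes were negative in 67.1% of 301 cases and in the others in 68.5% of 1360. Regions in curated lncRNA genes were negative in 67.6% of 522 and strong in 19.3%, against 68.5% and 17.9% of the 1139 in predicted genes. Within both divisions the intervals of the negative share overlapped. The strong share was 14.6% in overlapping lncRNA genes and 19.2% in the others.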

How the data were processed

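Bisulfite libraries of 2 sorted progenitor populations, 1 library per group, were compared by the authors. The authors' deposited list gives position and a signed score per region, without column names. Positions refer to mm10, which the submitters' processing notes name. Aligner, region caller, thresholds and coverage: not given in the sources used here. Hence the depth behind each region is unknown and no interval on a level was computed. Read as BED, all 230 region starts that could be checked against RefSeq start windows fell on a CpG cytosine of either strand (69 of them if read as counting from 1), and positions are printed counting from 1.

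Genes came from a RefSeq table of GRCm38.p6 (the assembly of mm10) without exons, so introns and exons could not be told apart. Distances run between the nearest edges. Strand, starts and sequences came from RefSeq tables of the same assembly, with no start windows on chromosome 18. Shares carry 95% Wilson intervals and their differences 95% Newcombe intervals (Python 3.11.15, statsmodels 0.14.6). No test was run, since each group has 1 library. Distances were tested on simulated data.

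Named genes were drawn from, without naming every one, those with the 12 strongest regions of each sign, the 10 lncRNA genes with the most regions, those without placeholder symbols, lists of known lncRNA and neighbouring genes, and the regions at the limits of the rule. The strongest start regions and some list examples were picked after their values were seen. Members and lists were chosen with earlier results of these data known. Alternatives varied the distances, overlap, gene models, width and score. CpG content of regions outside start windows was not computed, as no genome was used here. One named lncRNA start is not reported here.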

Additional observations from a re-analysis of the deposited data

How the results depend on the processing

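The negative share, 68.2%, stayed between 67.1% and 70.9% under all alternatives, and the highest value, 70.9%, came from regions of at least 100 bp. The difference in negative share from like-placed regions changed sign under 4 settings (-1.51 points at an absolute score of 50 or more) but each value lay inside the 95% interval of the reported difference (-1.95 to 3.03). The difference in strong share, added after the data were seen, ran from 2.54 points (regions wholly inside the lncRNA body) to 4.47 (curated genes only), and was 2.76 without regions beside the listed transcription factor genes. Leaving out the regions beside Hoxb9 from the homeobox list was also added after the data were seen. Curated genes alone left 522 regions, with a median absolute score of 54.0. Scores of at least 50 and 100 left 862 and 305 regions, with median widths of 167 and 252 bp. A width of at least 100 bp left 1002 regions, with a median absolute score of 73.0 and 29.6% strong. No paired analysis was possible because each group has 1 library.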
